A study of Mus musculus with 576 samples.

Results

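The matrix proteases and their inhibitors were taken as every gene whose mouse symbol is Adamts followed by a number, Adamtsl followed by 1 digit, Mmp followed by a number and an optional a or b, or Timp1 to Timp4. The rule found 51 of the 36658 genes in the count tables: 23 Mmp genes, 19 Adamts genes, 5 Adamtsl genes and 4 Timp genes. The tables hold Smart-seq2 profiles of single GFP+ cells sorted from mouse dorsal pancreas at embryonic day 12.5. The 3 source lines are named here by their drivers: Nkx2.5 for Nkx2.5-Cre;R26mTmG, Nkx3.2 for Nkx3.2-Cre;R26mTmG, and Prox1 for Prox1-GFP. In both Cre lines, Cre switches on membrane GFP for good, so that the sort takes cells that express the driver and also the descendants of cells that once did. In the Prox1 line, Tg(Prox1-EGFP), GFP reads the transgene's present activity. Since the embryo or litter of a cell was not recorded, each line counts as 1 sample and no p-value was computed from cells. Each line filled its own 2 plates of 96 wells, so that a difference between lines and a difference between plates cannot be told apart. Tissue was digested with collagenase at 37 °C for 10 min before sorting, in cells of all lines alike.

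Matrix metalloproteinases (Mmp) are zinc endopeptidases that cleave collagens, other matrix proteins and many proteins at the cell surface. They are made as inactive precursors, and some are secreted while others are held in the membrane. Proteases of the Adamts family are secreted, bind the matrix through thrombospondin repeats, and cleave proteoglycans such as versican and aggrecan, the ends of procollagens, or proteins of microfibrils. Adamtsl proteins resemble them but have no catalytic domain. The tissue inhibitors of metalloproteinases (Timp) bind the active site of these enzymes, and Timp3, which stays in the matrix, also inhibits several Adamts proteases. In branching organs these proteins are known to act where epithelium, mesenchyme and basement membrane meet. Levels of mRNA do not show how much of a protease is active, since activity also depends on removal of the propeptide and on inhibitors.

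Of 576 libraries, 549 passed a minimum of 100000 counts, with 19 left out from the Nkx2.5, 1 from the Nkx3.2 and 7 from the Prox1 plates, and those kept held between 224814 and 1512736 counts each. Cells were clustered without the members and placed in a state by markers. Of 413 mesenchymal cells, 77 came from the Prox1 line and the rest in equal number from each Cre line, and 23 cells of the Nkx3.2 line were mesothelial. Of the Prox1 line, 86 cells were epithelial and 19 were endocrine. These 6 groups are the ones described. The states were assigned by these same markers, so that marker levels describe the groups and do not test them. All 12 epithelial markers were at 10 CPM or more in the epithelial cells, and all 12 endocrine markers in the endocrine cells. The same level was reached by 9 of 10 mesenchymal markers in each mesenchyme and by 6 of 7 mesothelial markers in the mesothelial cells. Mesothelial cells also held 605 CPM of the epithelial and 2419 CPM of the mesenchymal markers, and 11 of the 23 had markers of a second state. Epithelial cells held 95.7 CPM of the endocrine markers, against 51184 CPM in the endocrine cells. Most of this was Neurog3, at 84.7 CPM in the epithelial and 34.01 CPM in the endocrine cells, so that the epithelial group was not free of this endocrine marker. CPM is the summed count of a gene over the cells of a group, divided by all counts of those cells and scaled to 1000000. Intervals are 95% and exact, Poisson for CPM and folds and binomial for shares of cells, and they cover counting error only, since Smart-seq2 reads carry no molecular identifiers and PCR copies are counted. Where a group had no count, its level was set to 3 counts, and the fold is then written as at least that size.

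At the level of 10 CPM, 24 of the 51 members were reached in at least 1 of the 6 groups, 21 had counts but stayed below it, and 6 had no count in any of the 549 cells. The Nkx2.5, Nkx3.2 and Prox1 mesenchyme had 19, 19 and 20 members at 10 CPM or more, the mesothelial cells 15, the epithelium 11 and the endocrine cells 4. Summed over all members, the level was 1616, 1724 and 1328 CPM in the 3 mesenchymes, 1220 CPM in mesothelial cells, 1105 CPM in the epithelium and 130.8 CPM in the endocrine cells. The family that made up this sum differed by state. With each gene's level divided by transcript length (CPM per kb), Adamts genes held 75.4% of the sum in the epithelium and Mmp genes 14.8%. Of the Adamts part there, Adamts1 alone had 148.3 of 181.8 CPM per kb. In the mesenchymes and the mesothelial cells, Mmp genes held between 55.7% and 58.4%. A cell had counts of a median of 10, 13 and 11 members in the Nkx2.5, Nkx3.2 and Prox1 mesenchyme, 11 in mesothelial cells, 8 in the epithelium and 5 in endocrine cells. With each cell thinned to 100000 counts, these medians were 8, 11, 9, 8, 6 and 3. Over all genes, the median cell had values above 0 for 5833, 7314, 6418, 7776, 7628 and 8104 genes, in the same order. The part of this in the number of members per cell was not tested.

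**Figure D1:**
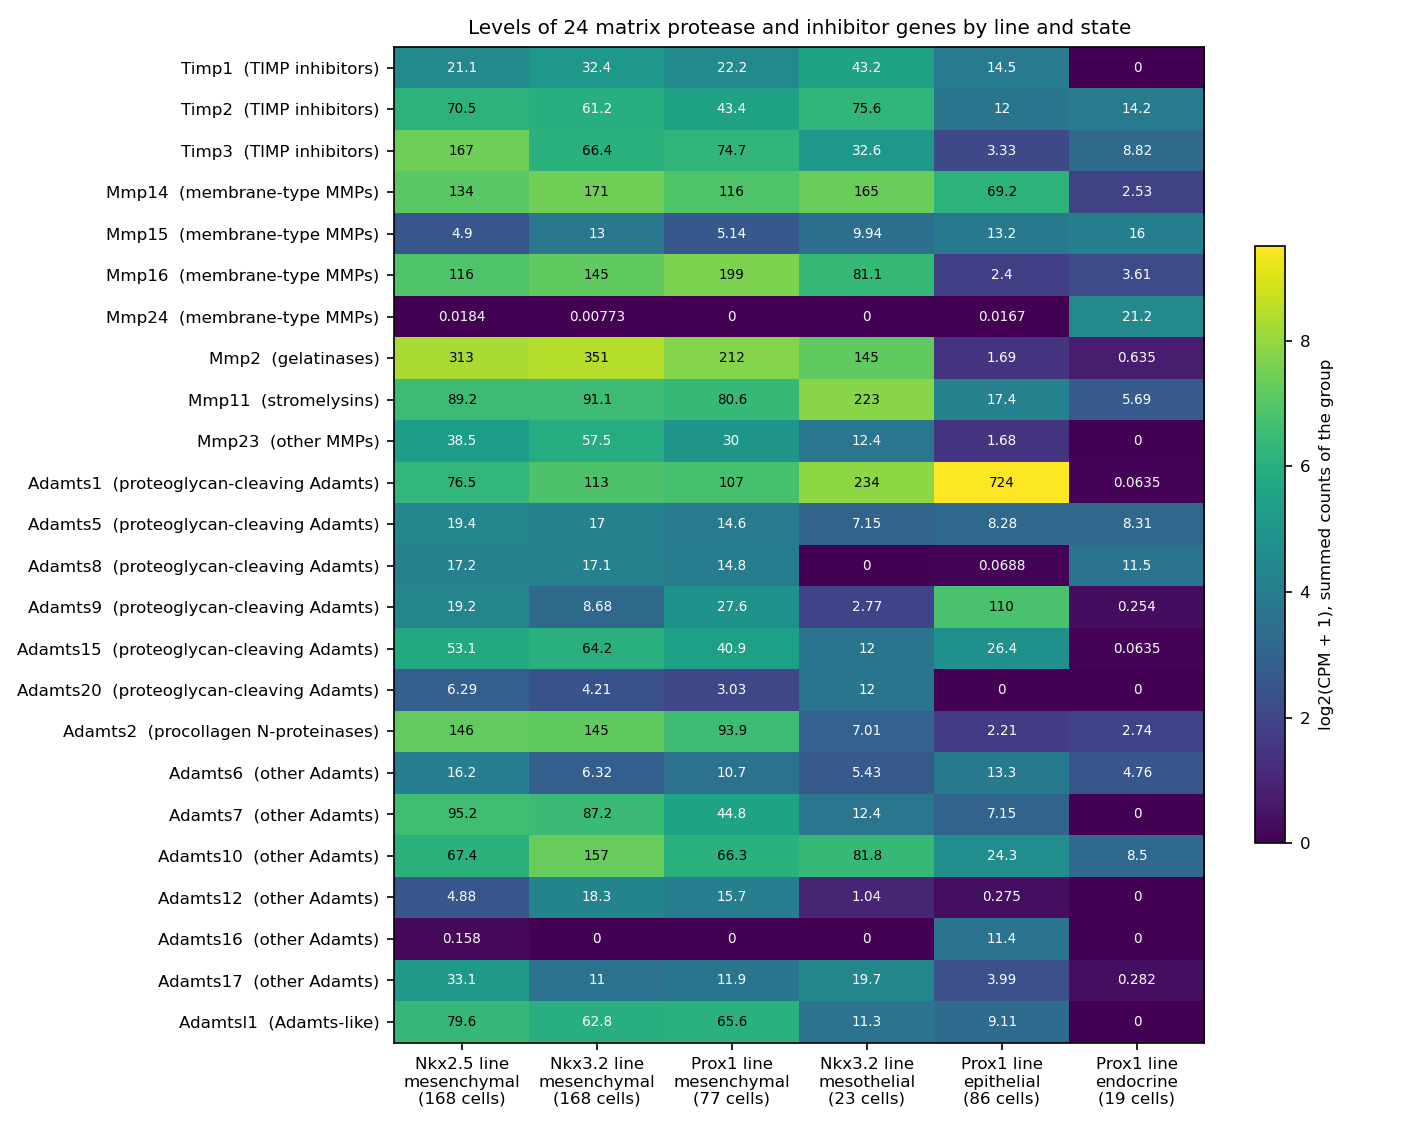
Level of the 24 members that reached 10 CPM in at least 1 group (rows) in the 6 groups of line and state (columns), as log2(CPM + 1) in colour with the CPM printed in each field. Adamts1 is highest in the Prox1 epithelium at 724 CPM, Mmp2 is high in the 3 mesenchymes at 212 to 351 CPM, and Mmp24 reaches 21.2 CPM in endocrine cells.

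The 6 members with no count were Mmp1a, Mmp1b, Mmp8 and Mmp13, the interstitial collagenases, and Mmp3 and Mmp10, the stromelysins 1 and 2. By the limit of 3 counts or 3 cells, a count of 0 over 549 cells allows a level of up to 0.00605 CPM and up to 0.546% of cells with a count. All 6 lie in 1 stretch of chromosome 9, chr9:7272514-7699585 in GRCm38, in which 10 Mmp genes follow each other over 427 kb with no other protein-coding gene between them. The other 4 in the stretch, Mmp7, Mmp12, Mmp20 and Mmp27, stayed at or below 2.0 CPM. The highest of these, Mmp12 (macrophage elastase), had 1.21 to 2.0 CPM in every one of the 6 groups, with counts in 34.5% to 63.2% of cells. Its exons overlap those of Mmp1b on the opposite strand, and whether the counting used strand is not given in the sources used here.

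The sequences before the start sites of the silent collagenases and stromelysins are shown because 5 of the 6 hold both an AP-1 motif and a TATA box. In Mmp8, the sixth, a TATA box began 3 bases before the start site and ran past it, and no AP-1 motif was found. Each line is the 100 bases just before a RefSeq start site in GRCm38.p6, 5′ to 3′ on the gene's strand. Capitals mark the AP-1 motif (TGAGTCA or TGACTCA), the TATA box (TATAAA) and the GC box (GGGCGG or CCGCCC), each searched on both strands. The windows are chr9:7272414-7272513, plus strand for Mmp13, chr9:7445722-7445821, plus strand for Mmp3, chr9:7502242-7502341, plus strand for Mmp10, chr9:7464041-7464140, plus strand for Mmp1a and chr9:7388027-7388126, minus strand for Mmp1b.
Mmp13: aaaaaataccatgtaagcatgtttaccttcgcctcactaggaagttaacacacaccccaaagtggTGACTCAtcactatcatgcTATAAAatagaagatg
Mmp3: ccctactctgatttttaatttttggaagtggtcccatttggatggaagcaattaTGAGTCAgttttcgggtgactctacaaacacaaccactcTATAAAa
Mmp10: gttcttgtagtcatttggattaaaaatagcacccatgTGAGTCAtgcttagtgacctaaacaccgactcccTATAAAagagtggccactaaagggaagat
Mmp1a: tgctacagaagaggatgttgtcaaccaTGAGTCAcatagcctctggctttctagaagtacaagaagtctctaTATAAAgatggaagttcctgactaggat
Mmp1b: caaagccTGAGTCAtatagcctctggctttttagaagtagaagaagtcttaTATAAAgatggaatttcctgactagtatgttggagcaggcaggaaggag
Each of the 5 has 1 AP-1 motif and 1 TATA box. The AP-1 motif begins 35 bases before the start in Mmp13, 46 in Mmp3, 63 in Mmp10, 73 in Mmp1a and 93 in Mmp1b.

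The second set holds 4 members with counts from outside the stretch, for comparison: Adamts1 (chr16:85803114-85803213, minus strand), Mmp14 (chr14:54431498-54431597, plus strand), Timp1 (chrX:20870066-20870165, plus strand) and Mmp24 (chr2:155775242-155775341, plus strand).
Adamts1: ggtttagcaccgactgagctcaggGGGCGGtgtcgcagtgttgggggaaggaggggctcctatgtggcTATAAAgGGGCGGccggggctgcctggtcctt
Mmp14: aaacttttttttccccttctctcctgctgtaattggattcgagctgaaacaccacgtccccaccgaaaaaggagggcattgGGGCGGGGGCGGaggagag
Timp1: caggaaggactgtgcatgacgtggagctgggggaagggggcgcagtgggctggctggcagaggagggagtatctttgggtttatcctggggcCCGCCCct
Mmp24: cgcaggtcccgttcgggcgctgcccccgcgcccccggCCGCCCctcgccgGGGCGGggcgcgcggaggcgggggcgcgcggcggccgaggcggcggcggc
None of these 4 has an AP-1 motif in the 100 bases, all 4 have a GC box, and Adamts1 also has a TATA box. In the longer windows of the RefSeq table, from 250 bases before to 50 after the start, 36 members were matched, with 39 windows. An AP-1 motif lay in 7 of the 12 windows of the chromosome 9 stretch (58.3%), in 0 of the 27 windows of other members and in 5.20% of all 32851 windows. A TATA box lay in 9 of the 12 (75%), in 3 of the 27 (11.1%) and in 13.6% of all windows. Mmp7 and Mmp12, members of the stretch with counts in 2 and 202 cells, each had a window with both motifs. The pair of motifs was thus not confined to members without counts. A GC box lay in 0 of the 12, in 22 of the 27 (81.5%) and in 35.7% of all windows. The median GC content was 41.7% in the stretch, 66% in the other members and 52.7% in all windows. A match is a run of letters, and nothing about binding was measured.

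Of the inhibitors, Timp1, Timp2 and Timp3 were expressed, and Timp4 stayed at or below 0.317 CPM. Summed Timp level was 259 CPM in the Nkx2.5 mesenchyme, 160 CPM in the Nkx3.2 mesenchyme, 140 CPM in the Prox1 mesenchyme and 151.4 CPM in mesothelial cells, against 29.8 CPM in the epithelium and 23.3 CPM in endocrine cells. Timp3 (chr10:86300372-86349506), whose gene lies inside Syn3 and shares exon bases with it on the opposite strand, differed most between the mesenchymes. It was at 166.9 CPM (164.9 to 168.8) in the Nkx2.5 mesenchyme, 66.4 (65.1 to 67.7) in the Nkx3.2 mesenchyme, 74.7 (72.5 to 76.9) in the Prox1 mesenchyme and 32.6 (30.1 to 35.3) in mesothelial cells, and at 3.33 (2.92 to 3.78) in the epithelium. Its counts were uneven between cells: in the Nkx2.5 mesenchyme the lowest cell had 0, the median 2.39 and the highest 1194 CPM, with counts in 57.1% of cells. In the endocrine cells Timp3 stood at 8.82 CPM, of which 1 cell gave 78.4%. Timp2, which also serves as the link between Mmp14 and pro-Mmp2 at the cell surface, was at 70.5, 61.2 and 43.4 CPM in the mesenchymes, 75.6 CPM in mesothelial cells, 12 CPM in the epithelium and 14.2 CPM in endocrine cells. Timp1 was at 21.1, 32.4 and 22.2 CPM in the mesenchymes, 43.2 CPM in mesothelial cells and 14.5 CPM in the epithelium, with no count in the 19 endocrine cells. Counts of Timp1 were found in 73.9% of mesothelial cells (51.6% to 89.8%) and 36% of epithelial cells (26% to 47.1%).

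Among the membrane-type proteases, Mmp14 (chr14:54431612-54445364) was the most widely spread. It cleaves fibrillar collagen at the cell surface and activates pro-Mmp2. Its level was 133.9, 171.3 and 116.01 CPM in the Nkx2.5, Nkx3.2 and Prox1 mesenchyme, 164.6 CPM in mesothelial cells and 69.2 CPM (67.3 to 71.1) in the epithelium. Counts were found in 81.4% of epithelial cells, a share within the 75.3% to 95.7% of the mesenchymal and mesothelial groups. Per epithelial cell the lowest was 0, the median 62.2 and the highest 306 CPM. Endocrine cells had 2.53 CPM (1.81 to 3.45), so that Mmp14 separated the epithelium from its endocrine cells more than it separated epithelium from mesenchyme. Mmp16 was mesenchymal and mesothelial, at 115.7, 144.5, 199 and 81.1 CPM, and stood at 2.40 CPM in the epithelium and 3.61 CPM in endocrine cells. Mmp15, related to Mmp14, was low everywhere, from 4.90 CPM in the Nkx2.5 mesenchyme to 16 CPM in endocrine cells. Mmp24, known from the nervous system, had 21.2 CPM (19 to 23.6) in endocrine cells and at most 0.0184 CPM in the other 5 groups. It had counts in 31.6% of the 19 endocrine cells (12.6% to 56.6%) and in 1.16% of the 86 epithelial cells, with 33.8% of the endocrine counts in 1 cell. The exons of Mmp24 overlap those of BC029722 on the opposite strand. Of the 2 glycosylphosphatidylinositol-anchored members, Mmp17 stayed at or below 1.42 CPM and Mmp25 at or below 4.54 CPM.

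Among the secreted metalloproteinases, Mmp2 (gelatinase A, chr8:92827291-92853420) had the highest CPM per kb in each mesenchyme. It had 313 CPM (310 to 316), 351 CPM (348 to 354) and 212 CPM (208 to 216) in the Nkx2.5, Nkx3.2 and Prox1 mesenchyme, with counts in 81%, 95.8% and 80.5% of cells. The median cell had 275, 320 and 170.5 CPM. Mesothelial cells were lower and uneven, at 145.4 CPM with a median of 38.5 and a highest cell of 680 CPM. In the epithelium all counts came from 1 of 86 cells, and in the endocrine group 2 of 19 cells (10.5%) had counts, so that cells with Mmp2 counts were rare outside the mesenchyme and the mesothelial group. Mmp9 (gelatinase B) had counts in 2.60% to 5.95% of mesenchymal cells and none in the other 3 groups. Mmp11 (stromelysin 3), which is activated inside the cell by furin, was highest in mesothelial cells at 223 CPM (217 to 230), against 89.2, 91.1 and 80.6 CPM in the mesenchymes, 17.4 CPM in the epithelium and 5.69 CPM in endocrine cells. Counts of it were found in 91.3% of mesothelial cells. The exons of Mmp11 overlap those of Chchd10 on the opposite strand. Mmp23, a small membrane-anchored precursor that is cut free, was at 38.5, 57.5 and 30 CPM in the mesenchymes, 12.4 CPM in mesothelial cells, 1.68 CPM in the epithelium and at 0 in endocrine cells.

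**Figure D2:**
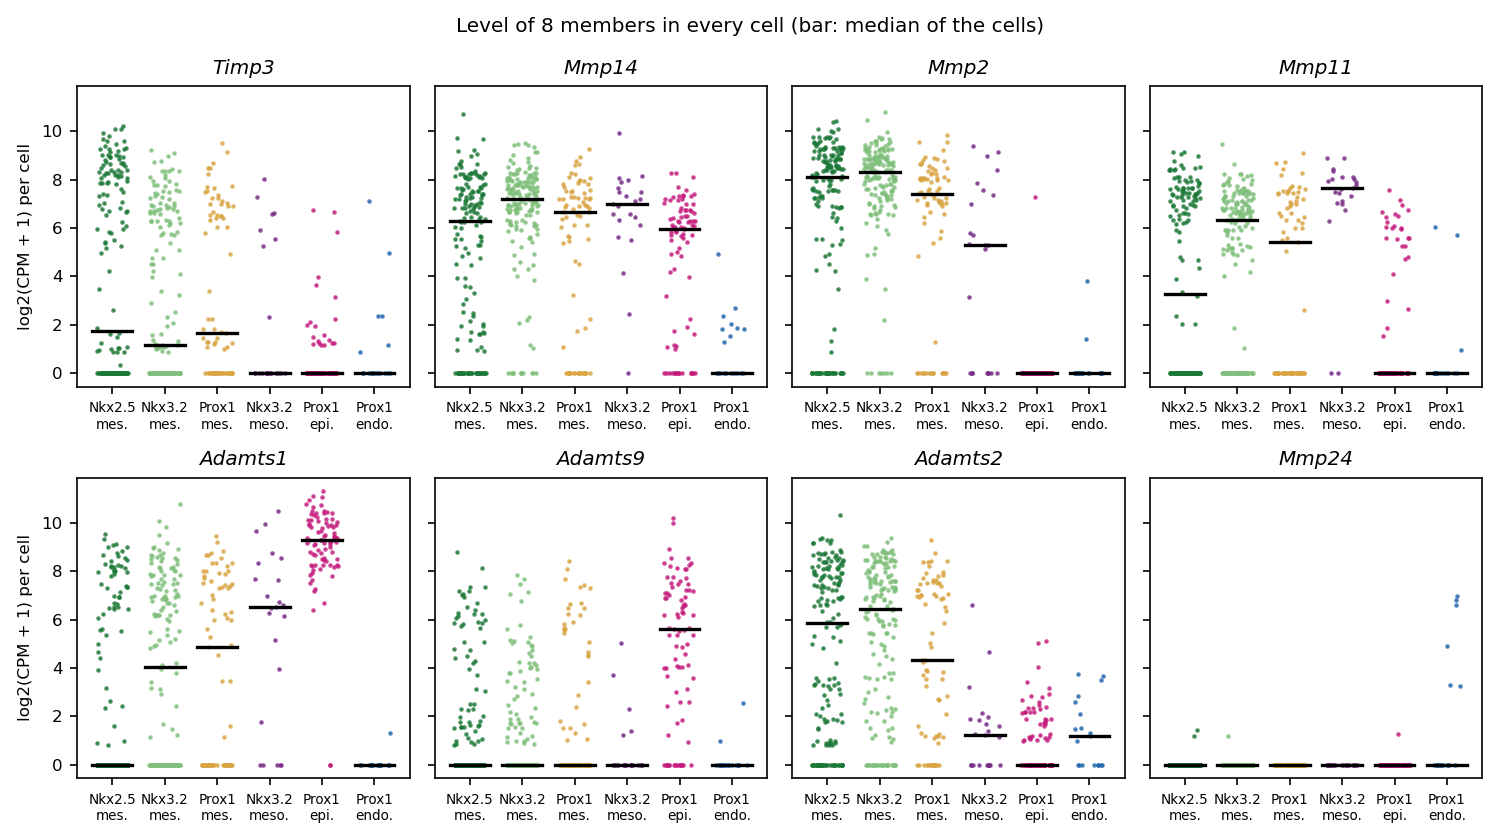
CPM in each cell (points, log scale of CPM + 1) of 8 members by group of line and state, with a bar at the median cell. Adamts1 has a median of 626 CPM in epithelial cells, whereas Mmp2 has a median of 170.5 to 320 CPM in the mesenchymes and is above 0 in 1 of 86 epithelial cells.

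The proteoglycan-cleaving group of Adamts1, Adamts4, Adamts5, Adamts8, Adamts9, Adamts15 and Adamts20 summed to 871 CPM in the epithelium and to 201, 230 and 214 CPM in the mesenchymes. Of the epithelial sum, Adamts1 alone gave 724 CPM. Adamts9 was also higher in the epithelium than in the Prox1 mesenchyme, whereas Adamts4, Adamts5, Adamts8, Adamts15 and Adamts20 were lower. The first member of the group by CPM per kb in the epithelium was Adamts1 (chr16:85793827-85803113, minus strand), a protease of versican and aggrecan. It stood at 724 CPM (718 to 730) in the epithelium, 234 CPM in mesothelial cells and 76.5, 113.2 and 106.6 CPM in the Nkx2.5, Nkx3.2 and Prox1 mesenchyme. Of the epithelial cells 97.7% (91.9% to 99.7%) had counts, with a lowest cell of 0, a median of 626 and a highest of 2535 CPM, and the plates had 818 and 616 CPM. In the endocrine cells a single count was found, in 1 of 19 cells. The epithelial and endocrine cells compared here shared a sort and plates. Its mesothelial level differed between plates, at 54.8 CPM in the 3 cells of plate 7A and 274 CPM in the 20 cells of plate 7B.

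Adamts9, another versican protease, was likewise highest in the epithelium: 110 CPM (107.2 to 112.06) there, 19.2, 8.68 and 27.6 CPM in the mesenchymes, 2.77 CPM in mesothelial cells and 0.254 CPM in endocrine cells. Counts were found in 81.4% of epithelial cells. Adamts15 was spread over mesenchyme (53.1, 64.2 and 40.9 CPM) and epithelium (26.4 CPM) and had 1 count in the endocrine cells. Adamts5 lay between 7.15 and 19.4 CPM in all 6 groups. Adamts8, which forms a pair with Adamts15 that spans 64.7 kb of chromosome 9, had 17.2, 17.1 and 14.8 CPM in the mesenchymes, in 10.7% to 15.5% of cells, no count in mesothelial cells and 0.0688 CPM in the epithelium. In the endocrine cells it had 11.5 CPM from 3 of the 19, all on 1 of the plates. Adamts20 had 12 CPM in mesothelial cells, 3.03 to 6.29 CPM in the mesenchymes, and no count in the epithelium or the endocrine cells. Adamts4 stayed at or below 9.34 CPM.

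Adamts2 (chr11:50602084-50807573), which removes the amino-terminal propeptide of fibrillar procollagens, belonged to the mesenchyme. It had 146.2, 145.2 and 93.9 CPM there, 7.01 CPM in mesothelial cells, 2.21 CPM in the epithelium and 2.74 CPM in endocrine cells. By the share of cells the difference was smaller, with counts in 79.2% to 85.7% of mesenchymal cells and 47.7% (36.8% to 58.7%) of epithelial cells, whose highest cell had 33.9 CPM against 1268 CPM in the Nkx2.5 mesenchyme. The other procollagen proteases, Adamts3 and Adamts14, stayed at or below 8.09 and 3.68 CPM.

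Of the remaining Adamts genes, Adamts10, which binds fibrillin microfibrils, was at 67.4, 156.9 and 66.3 CPM in the Nkx2.5, Nkx3.2 and Prox1 mesenchyme, 81.8 CPM in mesothelial cells, 24.3 CPM in the epithelium and 8.50 CPM in endocrine cells. Adamts6, its closest relative, had 16.2, 6.32 and 10.7 CPM in the mesenchymes and 13.3 CPM in the epithelium. Adamts7 and Adamts12, both proteases of cartilage oligomeric matrix protein, were mesenchymal, Adamts7 at 95.2, 87.2 and 44.8 CPM and Adamts12 at 4.88, 18.3 and 15.7 CPM, with no count of either in the endocrine cells. Adamts17 had 33.1, 11 and 11.9 CPM in the mesenchymes and 19.7 CPM in mesothelial cells. Adamts16 had 11.4 CPM in the epithelium, in 14% of cells, with 0.158 CPM in the Nkx2.5 mesenchyme and no count in the other 4 groups. Adamts13, the protease of von Willebrand factor, stayed at or below 0.461 CPM. Of the Adamts-like genes only Adamtsl1 reached 10 CPM, at 79.6, 62.8 and 65.6 CPM in the mesenchymes, 11.3 CPM in mesothelial cells and 9.11 CPM in the epithelium, and none in endocrine cells. Adamtsl2 had 8.90 CPM in the epithelium from 2 of 86 cells.

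Single genes were ranked by level within a group only after division by the length of the longest transcript, as CPM per kb. Sums over a family in CPM are not per length and were set only against the same sum in other groups. On that scale Mmp2 was first in each mesenchyme, at 101.7, 113.9 and 68.8 CPM per kb, Mmp11 was first in mesothelial cells at 97.5, Adamts1 in the epithelium at 148.3 and Mmp24 in endocrine cells at 4.93. Mmp14 was second in the Nkx2.5 and Nkx3.2 mesenchyme, in mesothelial cells and in the epithelium, at 41.3, 52.9, 50.8 and 21.4 CPM per kb. With the merged length of all exons in place of the longest transcript, the first member was the same in all 6 groups.

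The mesenchyme and epithelium of the Prox1 line were compared first, since they share line and plates. Mmp2, Mmp16, Timp3, Mmp23, Adamts2, Adamts7, Adamts10 and Adamts12 were higher in the mesenchyme, and Adamts1, Adamts9 and Adamts16 in the epithelium. A gene was called when it differed by 2-fold or more, in the same direction on both plates, with a mean of 1 CPM or more. On this rule 31.4% of 14145 genes were called, 15.1% higher and 16.3% lower in mesenchyme. Of the 34 members tested, 17 were higher and 8 lower, which is 73.5% of them, and the median log2 ratio was 1.36, against 0.02 over all genes. The other 17 members were under the mean level. A low member can reach that mean only through the group where it is high and then has to differ. This share and this median by themselves therefore support nothing. Mmp2 was 125.2-fold (104.8 to 150.7) higher, Adamts2 42.5-fold, Mmp16 82.8-fold, Timp3 22.4-fold and Mmp23 17.9-fold. Adamts8 was 215-fold and Adamts12 56.9-fold higher, Adamts20 at least 73.5-fold, Adamtsl1 7.21-fold, Adamts7 6.26-fold and Mmp11 4.64-fold. The smaller ones were Timp2 at 3.62-fold, Adamts17 at 2.99-fold and Adamts10 at 2.73-fold. The low members completed the list: Mmp25 (36.4-fold), Adamts4 (2.42-fold) and Adamtsl5 (156.5-fold, 42.9 to 1300, on 2 epithelial counts). In the other direction, Adamts1 was 6.79-fold (6.62 to 6.98) and Adamts9 3.97-fold lower in the mesenchyme, and Adamts16 at least 224-fold and Adamtsl2 at least 174.98-fold. Adamts19 was 20.3-fold, Adamtsl4 13.6-fold, Mmp19 7.80-fold and Mmp15 2.56-fold lower. Timp1 (1.53-fold higher in the mesenchyme), Mmp14 (1.68-fold) and Adamts15 (1.55-fold) stayed under 2-fold, and Mmp9, Mmp12, Adamts5, Adamts6, Adamts14 and Adamts18 were not called either. Without plate 8B the Timp2 ratio was 1.63 and the Mmp25 ratio 1.06, and without plate 8A the Adamts4 ratio was 1.06. With the highest cell of each gene left out, Adamts20, Mmp25, Adamtsl5, Adamtsl2, Adamtsl4 and Mmp19 were no longer called, and the remaining difference was 23.8-fold for Adamts20, 60.3-fold for Adamtsl2, 9.67-fold for Adamtsl4 and 7.64-fold for Mmp19.

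**Figure D3:**
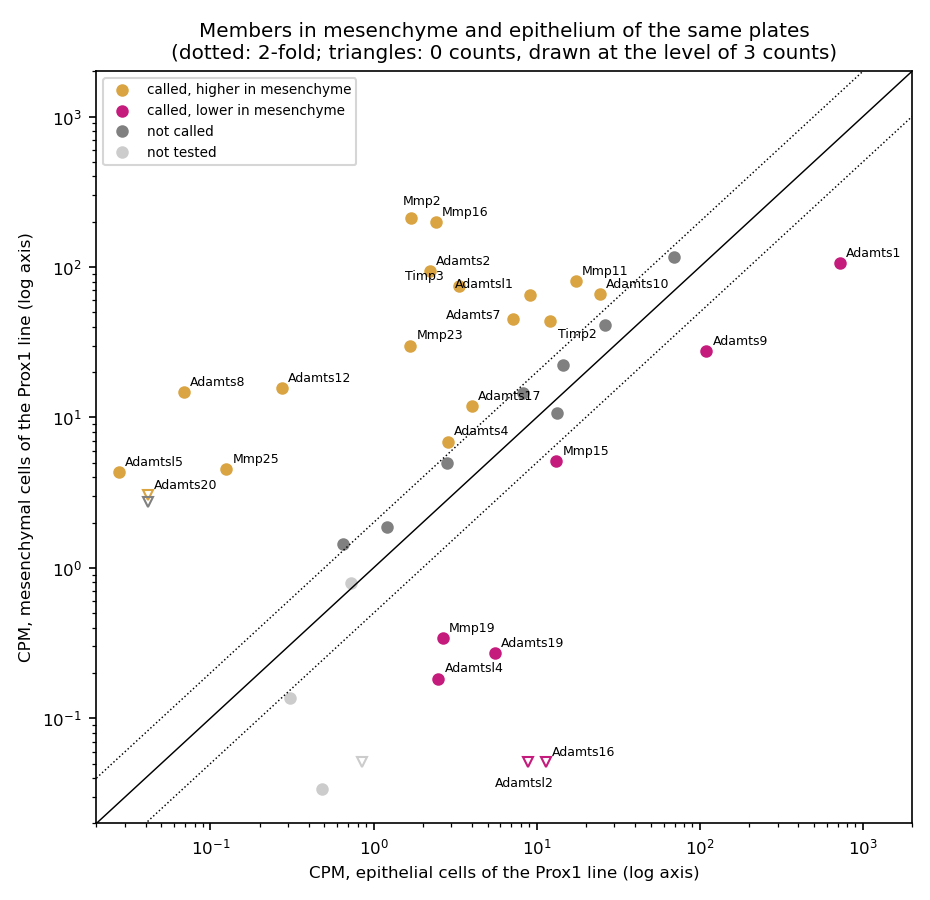
CPM of each member in the mesenchyme (vertical) and the epithelium (horizontal) of the Prox1 line, on log scales, with dotted lines at a 2-fold difference and triangles for groups with 0 counts, drawn at 3 counts. Mmp2 (212 against 1.69 CPM) and Adamts1 (106.6 against 724 CPM) lie on opposite sides.

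Other genes of the pathway moved in both directions. Of 15 activators and regulators tested, 5 were higher and 5 lower in the mesenchyme. Plat, tissue plasminogen activator, stood at 94 against 1.75 CPM, Reck, a membrane inhibitor of metalloproteinases, at 91.8 against 9.67 CPM, and the clearance receptor Lrp1 at 150 against 15.6 CPM. Of 8 Adam proteases 3 were higher and none lower, with Adam19 at 67.7 against 0.0292 CPM. Of 14 substrates and partners 8 were higher and 3 lower. Col1a1, a procollagen that Adamts2 processes, stood at 1426 against 3.12 CPM, whereas aggrecan (Acan), a substrate of Adamts1, was at 0 in the mesenchyme and 41.8 CPM in the epithelium. Versican (Vcan), the other substrate, ran the opposite way, at 38.4 against 1.21 CPM.

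Endocrine cells of the Prox1 line held little of the members, apart from Mmp24, Mmp15, Timp2 and Adamts8, the 4 at 10 CPM or more. Between the 19 endocrine and 86 other epithelial cells, 42.1% of 14410 genes were called, 18.2% higher and 24% lower in the endocrine cells. Of 30 members tested, 2 were higher and 17 lower (63.3%), with a median log2 ratio of -1.56 against -0.06 over all genes. Here too a low member can pass the filter on the mean only through the group where it is high. The share and the median by themselves support nothing. Mmp24 was 1273-fold higher, an interval of 258 to 29071 resting on 1.21 epithelial counts. When cells were classed one by one without clustering, giving 16 endocrine and 91 epithelial cells, its ratio was 4.72. Timp3 was 2.65-fold higher, but 0.819 with the highest cell left out. Of the falls, Adamts1 was 11410-fold lower (2048 to 450671, on 1 endocrine count), Adamts9 432-fold (168.6 to 1585), Adamts15 416-fold on 1 count and Mmp14 27.3-fold (20 to 38.3). Timp1 was at least 76-fold, Adamts16 at least 60-fold, Adamtsl1 at least 47.8-fold, Adamts7 at least 37.6-fold and Adamts4 at least 15-fold lower. Those of less than 10-fold were Adamts19 at 7.23-fold, Mmp19 at 3.68-fold, Mmp11 at 3.06-fold, Adamts10 at 2.86-fold and Adamts6 at 2.79-fold. Adamtsl4, at 55.2-fold on under 1 count, Adamts18, at 14.7-fold on 3 counts, and Adamts17, at 14.2-fold, completed the 17. Of 14 activators and regulators tested, 5 were higher and 4 lower. Basigin (Bsg), which is known to raise metalloproteinase production in neighbouring cells, stood at 1590 against 791 CPM, and testican 1 (Spock1) at 60.5 against 2.85 CPM. Of 8 Adam proteases 1 was higher and 3 lower, and of 11 substrates and partners 4 were higher and 7 lower.

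Within the epithelium, Adamts1 differed with the inferred cell cycle phase. It stood at 961 CPM in 33 cells scored G1, 688 CPM in 22 scored S and 525 CPM in 31 scored G2M. Both plates kept this order, with 1047, 709 and 633 CPM on plate 8A and 848, 637 and 458 CPM on plate 8B. Plate 8A held 19, 17 and 13 of these cells and plate 8B 14, 5 and 18, so that S on plate 8B rests on 5 cells. Mmp14 had the same order, at 99.5, 74.6 and 37 CPM. Adamts9 had it in summed CPM, at 125.8, 111.7 and 78.8 CPM on plate 8A and 196, 90.9 and 62.5 CPM on plate 8B, but not by cell: its median cell was at 39.9 CPM in G1, 96.01 CPM in S and 40.2 CPM in G2M. Median counts per cell were 777957 in G1, 863406 in S and 876499 in G2M, and the part of depth in this order was not tested. Split by clustering, 46 cells had 523 CPM of Adamts1 and 2.07 CPM of Adamts16, and 40 cells had 991 and 23.9 CPM. The second set held 21 of the cells in G1, the first 12, so that phase and set overlap.

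Mesothelial cells of the Nkx3.2 line had more Mmp11 and less of Mmp2, Mmp23 and most mesenchymal Adamts genes than the mesenchyme of the same line. In this comparison 22.8% of 13826 genes were called, 8.40% higher and 14.4% lower. Of 29 members tested, 2 were higher and 11 lower (44.8%), with a median log2 ratio of -0.94 against 0.02 over all genes. The limit of the filter on the mean holds here as well, so that the share and the median by themselves support nothing. Mmp11 was 2.45-fold (2.37 to 2.54) higher and Adamts20 2.85-fold (2.44 to 3.32), but Adamts20 was at 2.498-fold and no longer called with the highest cell left out. Adamts2 was 20.7-fold (17.5 to 24.8) lower, Adamts12 17.5-fold, Adamts7 7.05-fold, Adamtsl1 5.57-fold, Adamts15 5.37-fold, Mmp23 4.63-fold and Mmp2 2.41-fold. Adamts8 was at least 109.3-fold and Mmp9 at least 27.9-fold lower, Mmp25 24.2-fold and Adamtsl5 2.04-fold. Adamts1 was 2.07-fold higher but in opposite directions on the plates. Plate 7A held 3 mesothelial cells and plate 7B held 20, and without plate 7B the ratio was 0.757 for Mmp2, 0.585 for Adamts7 and 0.727 for Adamtsl1. Without the 11 cells that had markers of a second state, Mmp2 was at 0.653 of the mesenchymal level and Mmp11 at 1.93 times. Of 11 activators and regulators 2 were higher and 5 lower, with the proprotein convertase Pcsk5 at 162.7 against 12.5 CPM and Plat at 400 against 116.6 CPM. Serpine2, an inhibitor of plasminogen activators, stood at 11.4 against 182.2 CPM. Of 8 Adam proteases none was higher and 1 lower, and of 13 substrates and partners 1 was higher and 7 lower.

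In the mesenchyme, Timp3, Adamts17, Adamts6 and Adamts9 were higher in the Nkx2.5 than in the Nkx3.2 line, and Adamts12, Mmp15 and Adamts10 were lower. Of all genes, 13.2% of 13540 genes were called under the rule that all 4 pairs of plates point one way, 5.57% higher and 7.67% lower in the Nkx2.5 line. Of 30 members tested, 4 were higher and 3 lower (23.3%), a share that has the same limit from the filter on the mean and by itself supports nothing. Timp3 was 2.51-fold (2.46 to 2.57), Adamts17 3.02-fold, Adamts6 2.56-fold and Adamts9 2.21-fold higher in the Nkx2.5 line. Adamts12 was 3.75-fold, Mmp15 2.66-fold and Adamts10 2.33-fold (2.28 to 2.38) lower. Between single plates the difference in Adamts12 ran from 1.49-fold to 20.9-fold. Without plate 6B Adamts10 stood at 0.550 of the Nkx3.2 level, without plate 7B Adamts6 was 1.92-fold higher, and Adamts9 fell to 1.69-fold without plate 6A and to 1.80-fold without plate 7A. In clusters 0, 2 and 5 alone, which each hold 10 or more cells of every line, Adamts6 was 1.66-fold higher, and Adamts12 was 2.53-fold lower but no longer called. Adamts9 was 1.83-fold higher by the mean of per-cell CPM and 1.74-fold with cells thinned to 100000 counts. Of the pathway lists, 0 of 15 activators and regulators, 2 of 9 Adam proteases and 1 of 14 substrates and partners were called.

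Between the Prox1 and Nkx3.2 lines, which share the Nkx3.2 cells with the comparison above, 12.3% of 13557 genes were called, 5.30% higher and 7.01% lower in the Prox1 line. Of 29 members tested, 2 were higher and 2 lower (13.8%), a share near that of all genes. Adamts9 was 3.18-fold (2.96 to 3.42) higher, Mmp15 2.54-fold and Adamts10 2.37-fold lower. Without plate 8B Adamts10 stood at 0.582 of the Nkx3.2 level. Adamts18 was 83-fold higher at 4.96 against 0.0598 CPM, and 62.9% of its Prox1 counts came from 1 cell. In the pathway lists 1 of 13 activators and regulators, 1 of 8 Adam proteases and 1 of 14 substrates and partners were called. The lines were not made up of the same mesenchymal clusters, and in clusters 0, 2 and 5 alone Adamts18 was at 0.693 and Mmp15 at 0.501 of the Nkx3.2 level, neither of them called.

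The 7 mesenchymal clusters differed in a few members. Among 25 members at 10 CPM or more in at least 1 of them, 9 had a highest cluster 2 or more times the median cluster. The same share was not computed over all genes, so that this count shows nothing particular to the members. Cluster 8, which holds cells with Igf1 and Isl1, was highest in Mmp16 (377 CPM against a median of 128.99), Adamts1 (281 against 96.2) and Adamts9 (47 against 15.4). It was also highest in Mmp9, Adamts18 and Adamtsl5, but in 1 of the 2 lines compared only, with counts of Mmp9 and Adamts18 in 7.69% of its 26 cells and of Adamtsl5 in 11.5%. In the lines with 5 or more cells of this cluster, Adamts1 had 637 CPM in 6 cells of the Nkx3.2 line and 198 CPM in 18 cells of the Prox1 line. The peak of Mmp16 lay in the Prox1 cells of cluster 8, at 451 CPM. The Nkx3.2 cells of cluster 8 had 151.9 CPM of Mmp16, less than the 317 CPM in the Nkx3.2 cells of cluster 6. Cluster 6, with genes of mural cells, had 301 CPM of Mmp16 and the highest level of Adamts8, at 41.9 CPM. It was lowest in Timp3, at 17.1 CPM against a median of 115.4, with 21.1 CPM in 30 cells of the Nkx3.2 line and 0.25 CPM in 5 cells of the Prox1 line. Cluster 8 was lowest in Mmp23, at 3.67 CPM against a median of 42.9. Adamts17 was highest in cluster 5 (46.3 CPM), but the lines went apart there, at 99.7 CPM in the Nkx2.5, 22.7 CPM in the Nkx3.2 and 2.14 CPM in the Prox1 cells. Adamts5 was at 32.8 CPM (31.5 to 34.1) in cluster 3 and 32.6 CPM (30.1 to 35.3) in cluster 8, and the Nkx3.2 cells of cluster 3 had none. Mmp2 lay between 276 and 439 CPM over the 7 clusters with the lines together. By line it ran from 8.72 CPM in 5 Prox1 cells of cluster 6, where the Nkx3.2 cells had 309.6 CPM, to 507 CPM in the Nkx2.5 cells of cluster 5.

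**Figure D4:**
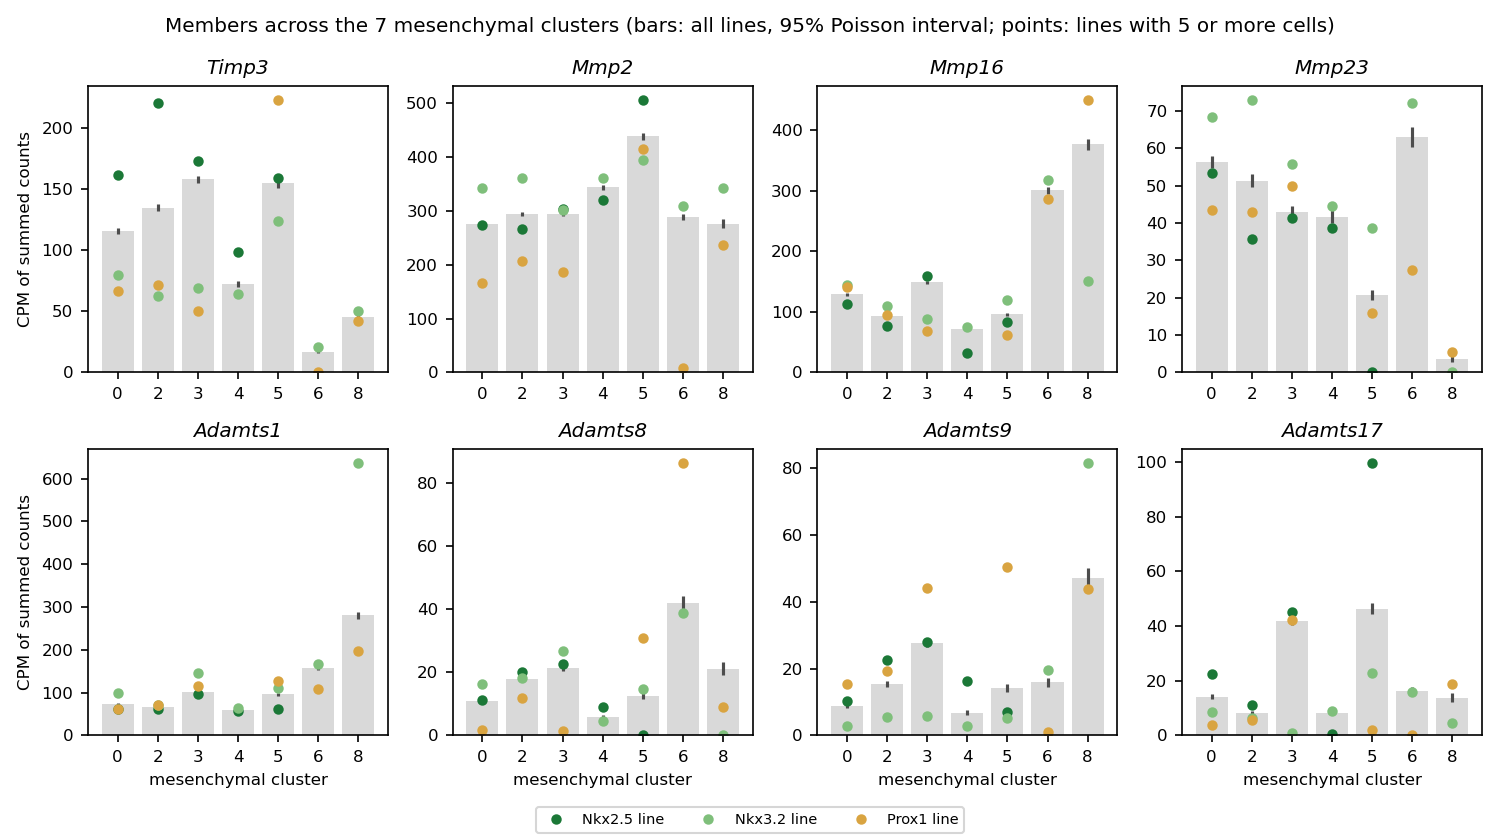
CPM of 8 members in the 7 mesenchymal clusters, with bars for all lines together and their 95% Poisson interval, and points for each line with 5 or more cells. Mmp2 lies at 276 to 439 CPM with the lines together, with 1 point at 8.72 CPM for the Prox1 cells of cluster 6, whereas Timp3 falls to 17.1 CPM in cluster 6 and Mmp16 rises to 377 CPM in cluster 8. By line, Mmp16 in cluster 8 is at 451 CPM in the Prox1 and 151.9 CPM in the Nkx3.2 cells.

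Mmp14, Timp2 and Mmp2 form a complex at the cell surface in which pro-Mmp2 is activated, so that cells with counts of all 3 mRNAs were counted, which does not show the complex itself. All 3 had counts in 35.1% (27.9% to 42.8%) of Nkx2.5, 63.7% (55.9% to 71%) of Nkx3.2 and 33.8% (23.4% to 45.4%) of Prox1 mesenchymal cells. The product of the 3 single-gene shares was 34.3%, 64% and 32.3% in these groups, each within the interval of the share counted. The share was 43.5% (23.2% to 65.5%) in mesothelial cells, with a product of 40.7%. In the epithelium it was 0 of 86 cells, which by the limit of 3 cells allows a share of up to 3.49% (4.20% by the exact interval), and in endocrine cells 0 of 19, which allows up to 15.8% (17.6% by the exact interval). Over the 413 mesenchymal cells the share was 46.5%. Over all genes, the median cell had values above 0 for 5833, 7314 and 6418 genes in the Nkx2.5, Nkx3.2 and Prox1 mesenchyme. The part of this library-wide difference in the shares was not tested. The Nkx3.2 line kept the highest of the mesenchymal shares with cells thinned to 100000 counts, at 56% against 28% in the Nkx2.5 line and 26% in the Prox1 line. Single genes differed in this: epithelial cells had Mmp14 in 81.4% and Timp2 in 23.3%, but Mmp2 in 1.16%.

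**Figure D5:**
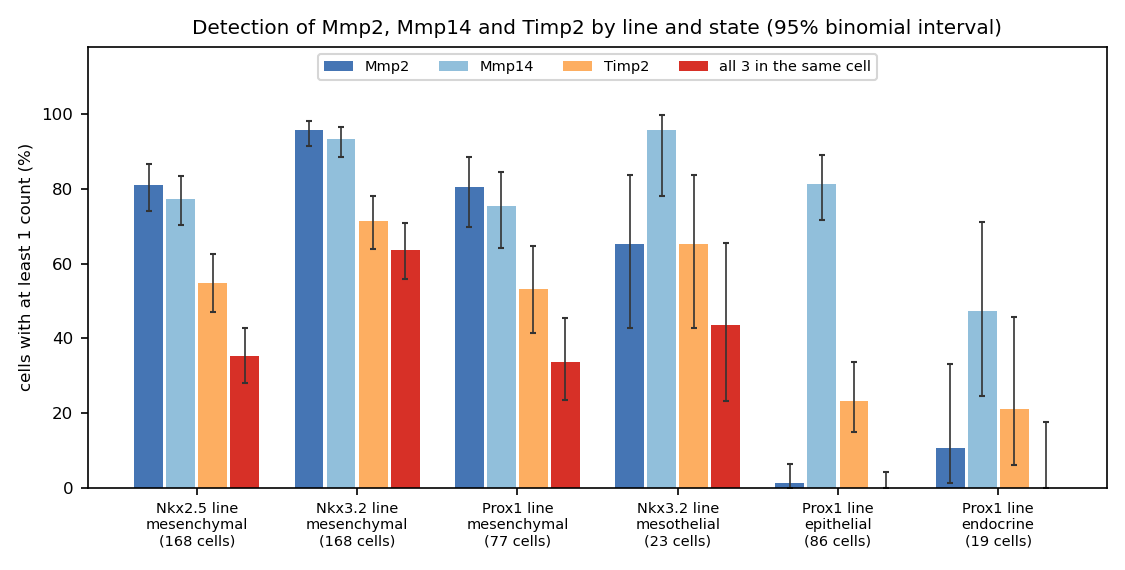
Percent of cells with counts of Mmp2, Mmp14, Timp2 and all 3 together by group of line and state, with exact 95% binomial intervals. All 3 together reach 63.7% in the Nkx3.2 mesenchyme and 0 of 86 epithelial cells.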

How the data were processed

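GFP+ cells were profiled by Smart-seq2. The authors trimmed reads (Trim Galore 0.6.5, per the submitters' processing notes), quantified them with kallisto (GRCm38) and collapsed transcripts by gene in tximport. The values deposited by the authors are estimated counts that were not normalized, and 36% of those above 0 are not whole. The annotation release and strand setting are not given in the sources used here. Symbols and positions were taken from GENCODE M21 and promoter windows from RefSeq (GRCm38.p6). Because estimated counts can split reads between overlapping or similar genes, such members are uncertain. Among the members at 10 CPM or more in a group, Mmp11, Mmp24, Adamts7, Adamts8, Adamts9 and Timp3 share exon bases with a gene on the opposite strand.

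Filters of 1000 genes, 100000 counts and a mitochondrial share of 30% left out 27 of 576 libraries, all for low counts. Seurat 5.3.0 (R 4.3.3) clustered them into 10 clusters on variable genes without members or listed pathway genes, with the cell cycle difference regressed out, and 1 cell fell in no state. Without clustering, 543 of 549 cells had the same state. No doublet caller was run; 13 cells had markers of a second state, all mesothelial. Counts were summed by line and state in Python 3.11.15 (numpy 2.4.6, pandas 2.3.3, scipy 1.17.1). A call needed a 2-fold ratio, the same direction on both plates (between lines, in all 4 plate pairs) and a mean of at least 1 CPM; no test was made. edgeR 4.0.16 gave TMM factors as an alternative scaling only. The scripts were tested on simulated data.

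All members were counted, and those at 10 CPM or more in a group, or past the call rule, are described with values. The members and lists were chosen with earlier results of these data known. Alternatives were other folds, filters, scalings, lengths, thinning to 100000 counts, classes without clustering, leaving out the highest cell, mixed cells or a plate, and, chosen after seeing the data, clusters 0, 2 and 5 only.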

Additional observations from a re-analysis of the deposited data

Results flagged for a closer look

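Adamts20 differed in direction between lines when cluster 2, whose cells had genes of proliferation, was set against the other mesenchymal cells of the same line. The ratio was 4.65 in the Nkx2.5 line (2.12 and 10.2 on its plates) and 0.146 in the Prox1 line (0.228 and 0.0931), where cluster 2 had no count and was set at 3 counts. Every plate of one line went the opposite way to every plate of the other, and the difference was not tested. Few cells carried these counts. With the lines together, 7.89% of the 76 cells of cluster 2 had a count, and 1 cell gave 34.3% of them. The Prox1 line had 30.4 CPM in 5 cells of cluster 6 and 7.09 CPM in 10 cells of cluster 5. Its other clusters with 5 or more cells had at most 0.238 CPM. In cluster 6, with the lines together, 1 cell gave 64.7% of the counts. The Prox1 cluster held 15 cells and the Nkx2.5 cluster 32.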

How the results depend on the processing

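No paired analysis was possible because each line is 1 sample and its plates carry no number shared with another line; for states of 1 line, the ratios within each plate entered the rule for a call. The counts of calls that follow are of members only. Each setting acted on all genes alike, and the shares of all genes called under these settings are not given here. A rise or fall in these counts is therefore not a result about the members. Between the Nkx2.5 and Nkx3.2 lines the 7 calls became 2 at 3-fold. Between the Prox1 and Nkx3.2 lines the 4 calls became 10 at 1.5-fold, 2 at 3-fold and 9 in clusters 0, 2 and 5 (1 higher, 8 lower, 2 of them shared). Co-detection of Mmp2, Mmp14 and Timp2, 46.5% of mesenchymal cells, was 39% after thinning and 40.2% at 5 counts or more. Leaving out a plate gave 26 calls each time in mesenchyme against epithelium, 23 to 26 in endocrine against epithelium, 16 to 23 in mesothelial cells (23 without plate 7A), 6 to 11 between the Nkx2.5 and Nkx3.2 lines (11 without plate 6B) and 5 to 11 between the Prox1 and Nkx3.2 lines (7 without plate 7A, 11 without plate 8A, 8 without plate 8B); with 1 plate left in a line, the same-direction rule asks less. Timp3 in endocrine cells reversed to 0.819 with the highest cell left out, and Adamts18 in the Prox1 mesenchyme to 0.693 in clusters 0, 2 and 5; the causes were not tested. Under every alternative but 3-fold, 16 of 25, 11 of 19, 5 of 13, 3 of 7 and 1 of 4 calls were kept, in the order of the report. At a clustering resolution of 1.0 endocrine and mesothelial cells merged with others, so those comparisons gave no value. Thinning to 100000 counts ended calls of Mmp15, Mmp19, Mmp25 and Adamtsl5 in mesenchyme against epithelium, of Mmp19, Adamts4, Adamts17, Adamts18, Adamts19 and Adamtsl4 in endocrine cells, of Mmp9, Mmp25 and Adamtsl5 in mesothelial cells, and of Adamts9 between the Nkx2.5 and Nkx3.2 lines.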
